A study of Mus musculus with 51 samples.

Results

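Synaptic vesicle and SNARE genes were followed across the CA1, CA3 and dentate gyrus (DG) of the mouse hippocampus. Members were chosen by a rule on gene symbols, with earlier results of these data known. The rule takes in synaptotagmins (Syt), syntaxins (Stx), syntaxin binding proteins (Stxbp), VAMPs, synapsins (Syn), Sv2 proteins and complexins (Cplx). It also takes in symbols that begin with Rab3, the SNAP proteins, synaptophysin (Syp) and its relatives (Sypl). The rule found 60 of 11807 genes that the array's annotation names without ambiguity, and each gene was represented by its brightest probe set of 97. By role these were 12 syntaxins, 2 SNAP proteins, 7 VAMPs, 4 syntaxin binding proteins, 13 synaptotagmins, 4 complexins, 6 synapsins and other vesicle membrane proteins, the clathrin adaptor Snap91, 4 genes of the Rab3 group and 7 other Rab genes. All arrays came from female mice of 4.5 months, by their labels, and every mouse gave 1 array for each subfield. There were 6 double-negative (DN) mice, which carry neither transgene, 5 tTA mice and 6 rTg4510 mice. The tTA mice carry the CaMKIIα-tTA driver, a tetracycline transactivator made in forebrain excitatory neurons, and rTg4510 mice carry it together with TRE-htau (P301L), the responder from which the transactivator drives mutant human tau. All 3 genotypes are littermates from a cross of the driver and responder lines, which were kept on different inbred strains, and mice with the responder alone were not analysed here.

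Neurotransmitter release depends on SNARE proteins. Vamp2 on the vesicle and Stx1a and Snap25 on the plasma membrane zip together to pull both membranes into contact, complexins hold the assembled complex in check, and synaptotagmins sense the calcium that triggers fusion. Synapsins tether vesicles in reserve, Rab3 proteins help bring them to the active zone, and clathrin adaptors such as Snap91 help retrieve vesicle membrane afterwards. The symbol rule is wider than that machinery. Many of the syntaxins and VAMPs it takes in serve the Golgi, endosomes or lysosomes, and Rab31, Rab32, Rab33a, Rab33b, Rab34, Rab37 and Rab38 are Rab proteins outside the Rab3 subfamily, so the set is described by role.

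The cellular layers were captured by laser from frozen sections, and their RNA was amplified before hybridization. Values are log2 signals, so a difference of 1 is a doubling, and levels are compared only between arrays for the same probe set. Median signals of the arrays lay between 2.91 and 3.12. The labelled subfields were set against their markers. Some of these were known from earlier results of these data, so this is not an independent check. All 6 DG granule cell genes measured were lower in CA1 and in CA3 than in the DG, among them Prox1 at −4.61 and −4.60. Of 6 CA3 genes, 4 were lower in CA1 than in CA3, among them Prkcd at −3.35, while Coch was at 0.51 (adjusted p = 0.0665). Of 5 CA1 genes, 2 were higher in CA1 than in CA3, Crym by 5.05 and Pou3f1 by 2.80, and Wfs1, Htr1a and Dcn were not called. In 5 arrays, the CA1, CA3 and DG arrays of DN mouse 4 and the DG arrays of DN mouse 5 and rTg4510 mouse 3, the signal of Prnp, part of which the tau responder's vector carries, went against the genotype label. The CA1 and CA3 arrays of DN mouse 5, and again the DG array of rTg4510 mouse 3, went against the female label at Xist, so results are also given without these 5 or 7 arrays where that changes them. The arrays labelled DN mouse 5, and those labelled rTg4510 mouse 3, thus did not all go the same way at Xist. Their pairing as arrays of 1 animal is in doubt, and counts of mice below include them. In captured tissue fewer cells of a type and less RNA per cell cannot be told apart.

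**Figure D1:**
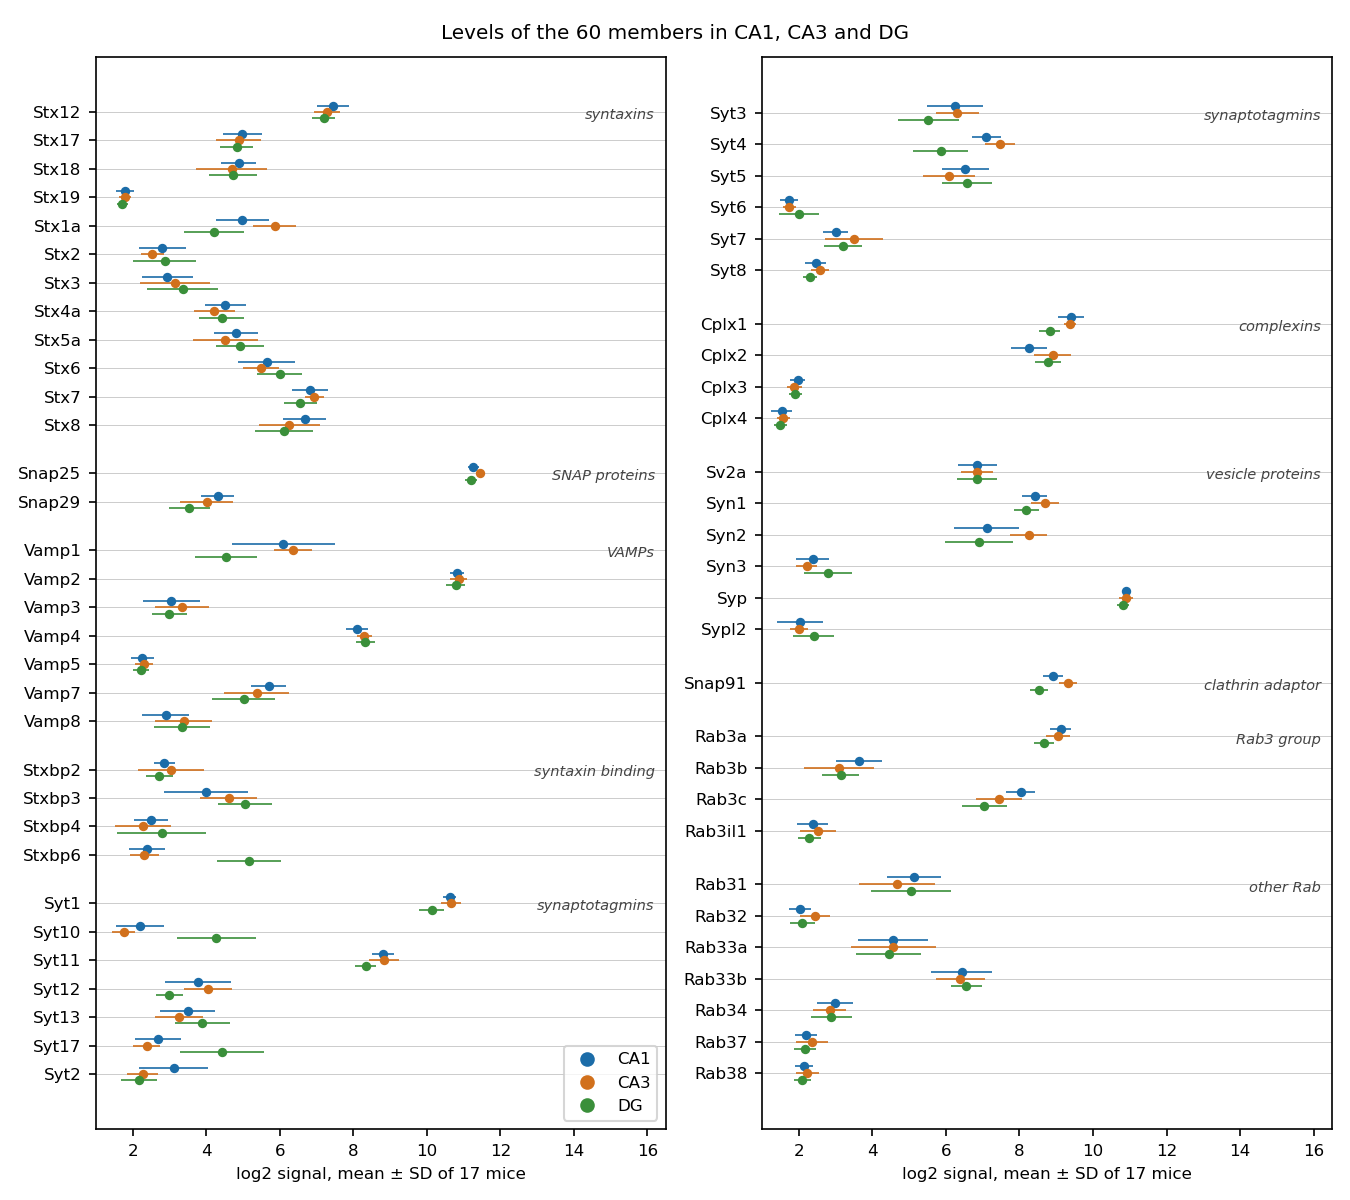
Log2 signal of each of the 60 members (horizontal axis) in CA1, CA3 and DG, grouped by role. Points are means over 17 mice and bars are SDs. Levels of different genes come from different probe sets and are not comparable. Stxbp6, Syt10 and Syt17 sit apart in the DG, while Vamp2, Syp and Sv2a have nearly coincident points.

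The members spanned the range of the array. Of the 60, 42 had a mean signal at or above the median probe set's 3.10 and 18 lay below it, among them Stx19 and Cplx4, whose signals stayed between 1.40 and 2.35 and between 1.17 and 2.31 over all 51 arrays. Differences between subfields cannot be read well for such dim probe sets. Among the bright members, Snap25 lay between 10.89 and 11.64 over 51 arrays, Syp between 10.45 and 11.21, and Vamp2 between 10.28 and 11.35. Other genes of the synapse ranged more widely, Stx1a from 2.81 to 6.84, Syn2 from 4.42 to 9.18 and Vamp1 from 2.28 to 8.68. Sv2a, a vesicle glycoprotein, ranged from 5.71 to 8.24 and was not called between subfields.

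Promoter sequences are shown for Stxbp6 and Syt10, which were higher in the DG, and for Vamp1 and Stx1a, which were lower in it, to set both directions side by side. RefSeq promoters of GRCm38.p6 (250 bases before to 50 after a start) were found for 46 of the 60 members, and Syt17 has none in the table used. The sequences run 5′ to 3′ on the gene's strand. They lie at chr12:45074434-45074733 (minus strand) for Stxbp6, chr15:89841811-89842110 (minus) for Syt10, chr6:125215331-125215630 (plus) for Vamp1 and chr5:135023232-135023531 (plus) for Stx1a. Capitals mark the core of the cyclic AMP response element, TGACG, and the GC box, GGGCGG, each on either strand.
Stxbp6: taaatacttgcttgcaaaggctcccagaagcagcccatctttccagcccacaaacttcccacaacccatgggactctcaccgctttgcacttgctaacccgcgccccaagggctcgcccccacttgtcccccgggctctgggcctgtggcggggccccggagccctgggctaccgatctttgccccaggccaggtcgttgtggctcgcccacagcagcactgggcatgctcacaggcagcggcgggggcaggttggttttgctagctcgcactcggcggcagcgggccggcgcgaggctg
Syt10: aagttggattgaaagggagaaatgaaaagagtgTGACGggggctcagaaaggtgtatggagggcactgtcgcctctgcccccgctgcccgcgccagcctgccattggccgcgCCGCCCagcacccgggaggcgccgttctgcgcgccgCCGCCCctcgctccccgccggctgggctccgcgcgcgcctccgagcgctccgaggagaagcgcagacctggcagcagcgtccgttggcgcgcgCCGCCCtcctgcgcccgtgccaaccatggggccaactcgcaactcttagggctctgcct
Vamp1: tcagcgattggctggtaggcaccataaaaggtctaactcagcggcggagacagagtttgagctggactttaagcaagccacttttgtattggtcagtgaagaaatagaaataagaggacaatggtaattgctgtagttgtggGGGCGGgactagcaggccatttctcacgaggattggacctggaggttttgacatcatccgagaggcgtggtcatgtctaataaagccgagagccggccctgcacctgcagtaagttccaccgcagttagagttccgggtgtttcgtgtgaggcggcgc
Stx1a: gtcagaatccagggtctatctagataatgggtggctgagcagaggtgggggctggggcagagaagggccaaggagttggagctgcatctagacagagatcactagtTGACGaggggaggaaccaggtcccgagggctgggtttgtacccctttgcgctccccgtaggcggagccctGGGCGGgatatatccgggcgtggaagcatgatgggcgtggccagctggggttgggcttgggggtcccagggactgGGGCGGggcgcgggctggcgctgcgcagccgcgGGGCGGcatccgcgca
Motif counts in these sequences did not sort with the direction of the difference. Syt10 and Stx1a, which move in opposite directions, each held 1 TGACG and 3 GC boxes, whereas Stxbp6 held none of either and Vamp1 held 1 GC box. The E-box, CANNTG, occurred 2 times in Stxbp6, 0 times in Syt10 and 1 time each in Vamp1 and Stx1a. Over all 63 promoter entries of members, a GC box was present in 61.9% and TGACG in 25.4%, against 35.7% and 20.8% of all 32851 entries, and the median GC content was 60.3% against 52.7%. An E-box was in 71.4% of members' entries and 72.3% of all, and TATAAA in 4.8% and 13.6%. These are letter matches, not tested sites.

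The first question was how the release genes differ between the pyramidal fields and the granule cell layer. Moderated tests in limma compared subfields within mice, with p-values adjusted over all 22626 probe sets by the Benjamini-Hochberg method and a call at an adjusted p below 0.05. Between CA1 and CA3, 6 of the 60 members were called, 1 higher in CA1 and 5 lower, against 4.68% of all probe sets (2.46% higher and 2.22% lower). Between CA1 and DG, 18 members were called, 13 higher in CA1 and 5 lower, against 10.9% of all (5.6% higher and 5.33% lower). Between CA3 and DG, 18 members were called, 14 higher in CA3 and 4 lower, against 13.9% of all (7.27% higher and 6.59% lower). Members are brighter than most probe sets, and among probe sets at or above the 40th percentile of signal the shares of all called were 7.9%, 18.7% and 22%, against 12%, 36.0% and 36.0% of the 50 members kept. The median absolute difference of the members was 0.19, 0.26 and 0.34, against 0.13, 0.14 and 0.16 over all probe sets. The comparisons with the DG share its arrays and are not independent of each other.

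**Figure D2:**
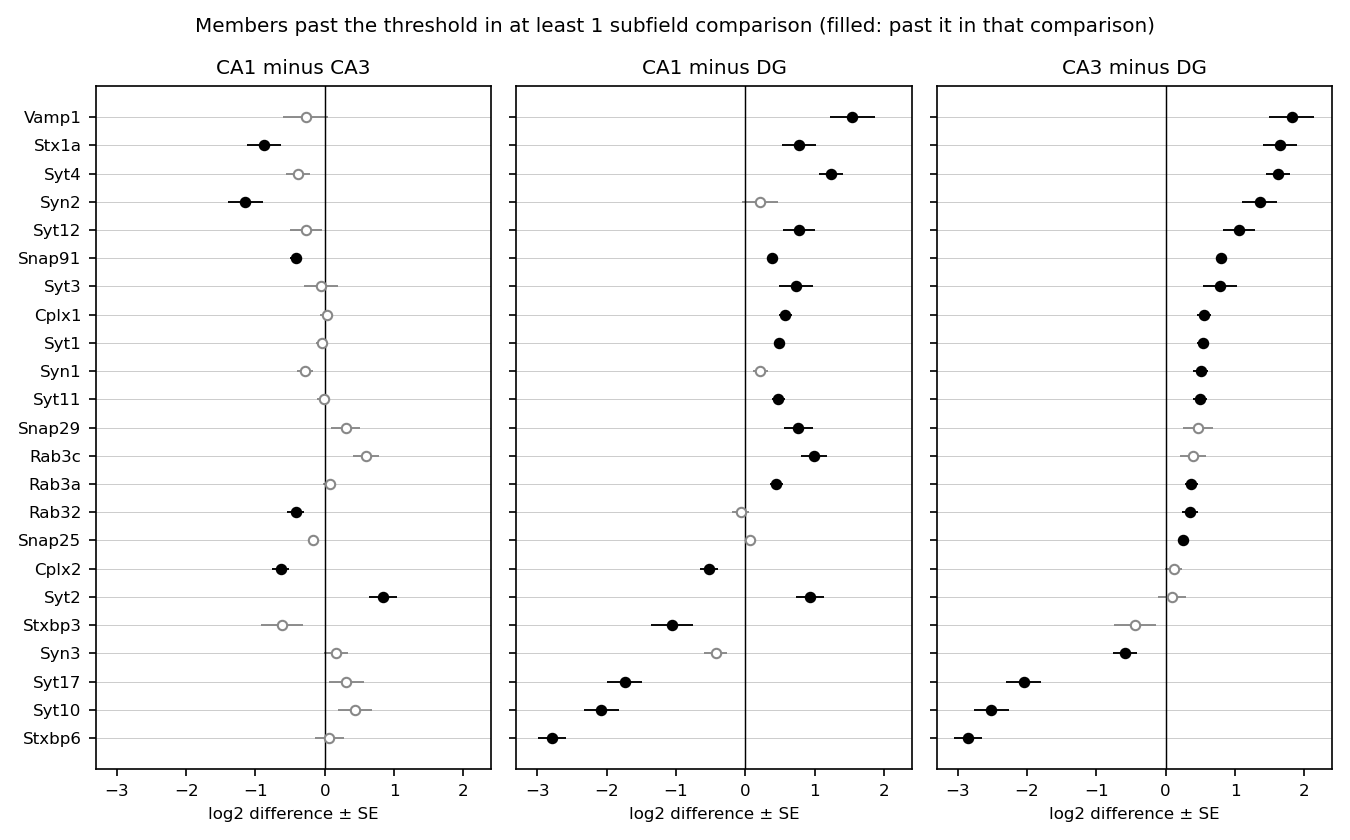
Log2 difference (horizontal axis) ± SE in 3 subfield comparisons for the 23 members called in at least 1 of them, fitted in limma within mice. Filled points passed an adjusted p of 0.05 in that comparison. Stxbp6, Syt10 and Syt17 lie far to the side of the DG, and 10 members, from Vamp1 to Rab3a, are filled on the other side in both comparisons with it.

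Both comparisons called 10 members as lower in the DG (Cplx1, Rab3a, Snap91, Stx1a, Syt1, Syt11, Syt12, Syt3, Syt4 and Vamp1) and 3 as higher in it (Stxbp6, Syt10 and Syt17). A further 5 were called only against CA1 and 5 only against CA3, which by itself does not show that the pyramidal fields differ. Snap91 and Stx1a were called in all 3 comparisons, and 37 members in none. The share of all probe sets with each of these joint patterns is not given here. The joint counts therefore cannot be set against a background.

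The largest differences were those of Stxbp6, or amisyn, which binds syntaxin and can take the place of a VAMP in a SNARE bundle without a membrane anchor. Its lowest, median and highest signals were 1.73, 2.29 and 3.46 in CA1. CA3 gave 1.76, 2.20 and 3.01, and the DG gave 3.67, 4.93 and 6.73. Every DG array lay above every CA1 and CA3 array. The difference was −2.78 for CA1 minus DG (SE 0.21, limma adjusted p = 7.9e-12) and −2.85 for CA3 minus DG (SE 0.21, limma adjusted p = 1.43e-12), in the same direction in 17 of 17 mice each. CA1 and CA3 differed by 0.07 (SE 0.21, adjusted p = 0.922). In the DG its mean was 5.67 ± 0.76 (SD) in DN, 5.03 ± 0.88 in tTA and 4.76 ± 0.81 in rTg4510 mice, differences that were not called.

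Syt10, a calcium-binding synaptotagmin known for secretion of growth factor from olfactory neurons, followed. Its signals in CA3 were 1.17, 1.75 and 2.33 (lowest, median and highest), in CA1 1.35, 1.93 and 3.38, and in the DG 2.44, 4.51 and 6.31. The DG did not overlap CA3 and overlapped CA1 slightly. The difference was −2.52 against CA3 (CA3 minus DG, SE 0.25, limma adjusted p = 1.67e-09) and −2.08 against CA1 (SE 0.25, adjusted p = 1.44e-07), with 17 and 15 of 17 mice higher in the DG. Syt17, a synaptotagmin relative without a membrane span, ran from 2.09 to 4.48 (median 2.54) in CA1, from 1.92 to 3.29 (2.34) in CA3 and from 2.87 to 6.32 (4.29) in the DG. Its ranges overlapped, and 16 of 17 mice were higher in the DG than in either field, by −1.74 (CA1 minus DG, SE 0.25, limma adjusted p = 4.66e-06) and −2.05 (CA3 minus DG, SE 0.25, adjusted p = 1.42e-07). The CA1 and CA3 medians of Stxbp6, Syt10 and Syt17 all lay below that of the median probe set.

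Markers of other cells also differed between the layers. Of 4 immature neuron genes, 3 were higher in the DG than in CA1 and than in CA3, among them Sox11 at −2.0 and −1.59 as CA minus DG. Of 14 astrocyte genes, 6 were higher in the DG than in CA1, among them the defining marker Gfap at −1.98, and 1, S100b, was lower (0.62). Against CA3, 4 astrocyte genes were higher in the DG (Gfap at −1.42) and 0 lower. The astrocyte list's mean signal ranged from 5.36 to 7.35 over CA1 arrays, from 5.13 to 6.83 over CA3 arrays and from 5.08 to 7.09 over DG arrays. Of 13 inhibitory interneuron genes, 4 were higher in the DG than in CA1 and 5 higher than in CA3. Among them were Gad1 (−0.65 and −1.53), Npy (−1.02 and −1.58), Reln (−1.04 and −1.24) and Calb2 (−2.22 and −1.68). The list was split, and 3 were lower in the DG than in CA1, Pvalb (1.78), Cck (1.24) and Vip (1.08). Against CA3, 1 was lower in the DG, Cck (1.31). Of 14 microglial genes, 2 were higher in the DG than in CA3, C1qc (−0.87) and Cx3cr1 (−0.63), and 1 was lower. No oligodendrocyte gene of 12 was called between subfields. The part of these cells in the levels of Stxbp6, Syt10 and Syt17 was not tested.

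**Figure D3:**
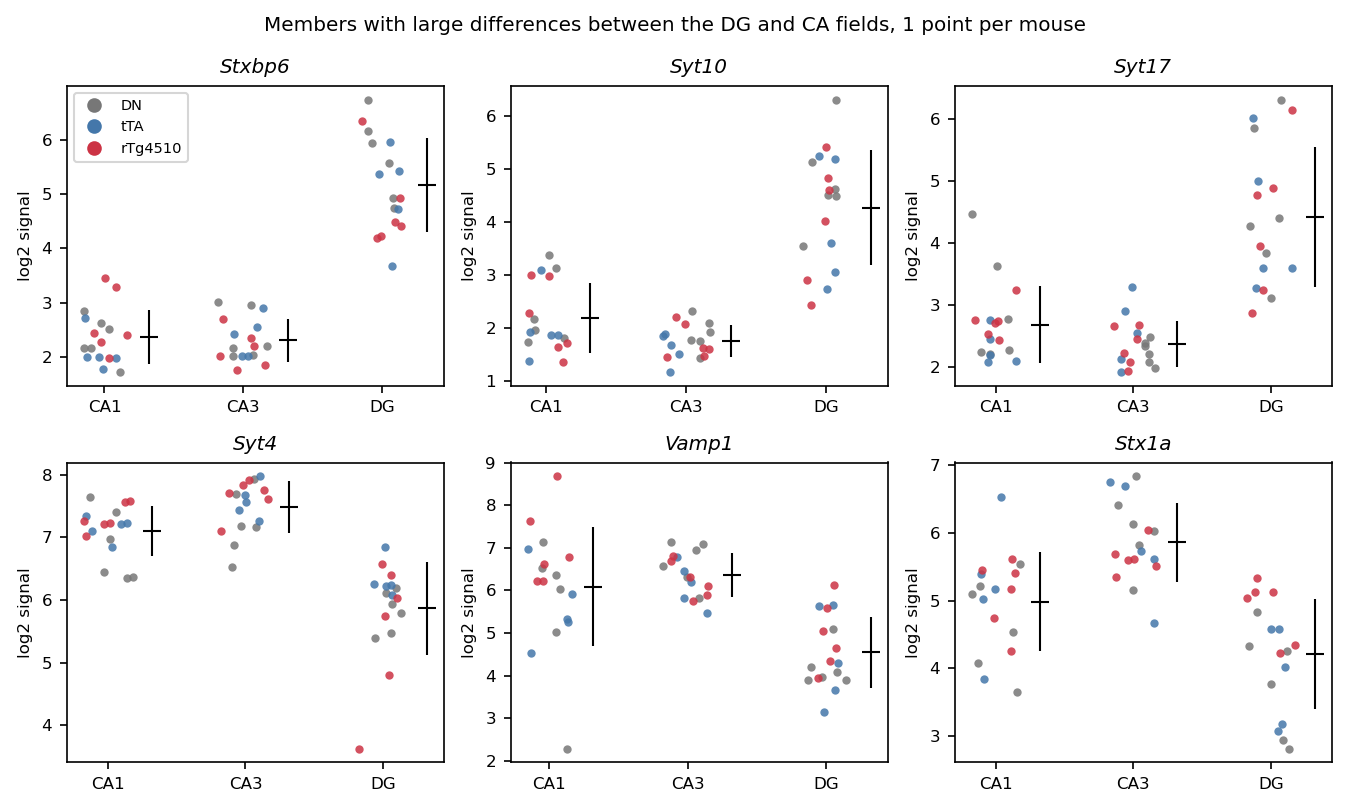
Log2 signal (vertical axis) of 6 members in CA1, CA3 and DG, 1 point per mouse coloured by genotype, with the mean and SD of the 17 mice as a bar. DG points of Stxbp6 begin at 3.67, above the highest CA1 point at 3.46. Syt4, Vamp1 and Stx1a run the other way, with DG points mostly below those of CA3.

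Among the synaptotagmins, 6 were higher in CA1 than in the DG and 5 higher in CA3. Syt1, the fast calcium sensor of forebrain synapses, ran from 10.42 to 10.92 (median 10.57) in CA1, from 10.11 to 10.97 (10.75) in CA3 and from 9.35 to 10.53 (10.24) in the DG. It was higher by 0.49 in CA1 (SE 0.08, limma adjusted p = 3.78e-05, 17 of 17 mice) and by 0.53 in CA3 (SE 0.08, adjusted p = 7.92e-06, 16 of 17 mice). Syt4, which binds calcium poorly and sits on dense-core vesicles, ran from 6.36 to 7.63 (median 7.21) in CA1, from 6.52 to 7.97 (7.61) in CA3 and from 3.62 to 6.84 (6.08) in the DG. CA1 and CA3 overlapped over most of their range and the DG overlapped them only at its upper edge, and every mouse was lower in the DG, by 1.24 against CA1 (SE 0.17, adjusted p = 2.43e-06) and 1.62 against CA3 (SE 0.17, adjusted p = 9.02e-09). Syt11, another synaptotagmin that does not bind calcium, was higher by 0.48 in CA1 and 0.49 in CA3 (SE 0.10 each, limma adjusted p = 0.00064 and 0.000317).

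Syt12, a vesicle synaptotagmin that is phosphorylated by protein kinase A, was higher by 0.78 in CA1 (SE 0.23, limma adjusted p = 0.021) and by 1.06 in CA3 (SE 0.23, adjusted p = 0.00113). The CA1 call of Syt12 was lost without DN mouse 1 (0.65, adjusted p = 0.061), without the 5 arrays (adjusted p = 0.0619) or without the 7 (0.0529). Syt3, which acts in receptor endocytosis at the postsynaptic side, was near the threshold in both comparisons, at 0.73 (SE 0.25, adjusted p = 0.0487) and 0.79 (SE 0.25, adjusted p = 0.0273). Leaving out 1 mouse undid the CA1 call of Syt3 for 12 of the 17 mice (all DN mice but 3 and 4, all rTg4510 mice but 2, and tTA mice 1, 3 and 4), with adjusted p-values from 0.0521 to 0.108, and the CA3 call for DN mice 4 and 6, rTg4510 mouse 5 and tTA mouse 1, with adjusted p-values from 0.0504 to 0.0675. Without the 5 or the 7 arrays the adjusted p of Syt3 was 0.054 or 0.0705 against CA1 and 0.0695 or 0.0672 against CA3.

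Syt2, the fast calcium sensor of many inhibitory and hindbrain neurons, was the 1 member called higher in CA1 than in CA3. Its lowest, median and highest signals were 2.0, 3.04 and 5.36 in CA1. CA3 gave 1.51, 2.32 and 3.44, and the DG gave 1.58, 2.12 and 3.55, so all groups overlapped. The difference was 0.84 against CA3 (SE 0.20, limma adjusted p = 0.00882, 13 of 17 mice) and 0.94 against the DG (SE 0.20, adjusted p = 0.00136, 16 of 17 mice). Without the 7 arrays the CA3 difference of Syt2 was 0.70 (adjusted p = 0.0754). Of 13 inhibitory interneuron genes, 3 were also higher in CA1 than in CA3, Gad1 by 0.88, Pvalb by 1.18 and Vip by 1.45, and 0 were lower. Against the DG the list was split, with Pvalb (1.78), Cck (1.24) and Vip (1.08) higher in CA1 and Gad1 (−0.65), Npy (−1.02), Reln (−1.04) and Calb2 (−2.22) lower. The mean signal of the list lay between 4.70 and 6.26 over CA1 arrays, 4.59 and 5.56 over CA3 arrays and 4.84 and 6.10 over DG arrays. Their part in the level of Syt2 was not tested.

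Of the SNARE proteins, Stx1a, a plasma membrane syntaxin, was ordered CA3 above CA1 above DG. Its lowest, median and highest signals were 4.66, 5.73 and 6.84 in CA3, 3.65, 5.17 and 6.54 in CA1 and 2.81, 4.33 and 5.34 in the DG, with overlap between each pair of neighbours. It was higher in CA3 than in the DG by 1.65 (SE 0.25, limma adjusted p = 5.09e-06, 17 of 17 mice), lower in CA1 than in CA3 (−0.88, SE 0.25, adjusted p = 0.029) and higher in CA1 than in the DG (0.77, SE 0.25, adjusted p = 0.0355). The middle place of CA1 was less firm. The CA1 to CA3 call of Stx1a was lost without the 5 arrays (adjusted p = 0.0704) or the 7 (0.136), and without DN mouse 1, 3, 4 or 5 or tTA mouse 3 (0.0558 to 0.0715), and its CA1 to DG call was lost without DN mouse 2, 3 or 6, rTg4510 mouse 6 or tTA mouse 3, 4 or 5 (0.0557 to 0.0938).

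Vamp1, the vesicle SNARE of fast-spiking and hindbrain neurons, ran from 2.28 to 8.68 (median 6.22) in CA1, from 5.47 to 7.14 (6.31) in CA3 and from 3.14 to 6.12 (4.30) in the DG. It was higher by 1.54 in CA1 (SE 0.33, limma adjusted p = 0.00103, 14 of 17 mice) and by 1.82 in CA3 (SE 0.33, adjusted p = 9.68e-05, 16 of 17 mice). The lowest CA1 value, of DN mouse 1, lay below every DG array. Vamp2, the main vesicle SNARE of forebrain synapses, showed no such step at its brightest probe set. Its medians there were 10.78, 10.89 and 10.87 in CA1, CA3 and DG. The differences were −0.04, 0.04 and 0.08 for CA1 minus CA3, CA1 minus DG and CA3 minus DG (SE 0.08 each, adjusted p = 0.859, 0.863 and 0.557). A second, dimmer probe set of Vamp2 gave −0.03, 0.24 and 0.27 (SE 0.10 each, limma adjusted p = 0.93, 0.115 and 0.0576). It was not called either, but missed the threshold narrowly between CA3 and DG. Snap25, the plasma membrane partner of Stx1a, was 0.24 higher in CA3 than in the DG in 17 of 17 mice (SE 0.05, adjusted p = 0.00134), with medians of 11.43 and 11.21. CA1 had a median of 11.29 and differed by −0.17 from CA3 (SE 0.05, adjusted p = 0.0609), a difference that passed the threshold under median centring (0.0159), a trend with intensity (0.0146), array weights (0.0377) and without DN mouse 2 (0.0382). Snap29, a SNAP protein of endosomes and autophagosomes, was 0.77 higher in CA1 than in the DG (SE 0.22, adjusted p = 0.0145), which neither of its other probe sets repeated (0.15 and 0.12, adjusted p = 0.743 and 0.62). Stxbp3, a syntaxin partner of constitutive secretion, was lower in CA1 than in the DG (−1.05, SE 0.30, adjusted p = 0.0181). That call of Stxbp3 was lost without DN mouse 2 (−0.92, adjusted p = 0.0527) or DN mouse 3 (−0.93, 0.0504).

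The endocytic and vesicle-pool genes were led by Snap91, or AP180, which sets the size of clathrin coats at the synapse. Its lowest, median and highest signals were 8.85, 9.36 and 9.77 in CA3, 8.46, 8.91 and 9.35 in CA1 and 8.07, 8.54 and 8.95 in the DG. The order CA3 above CA1 above DG held in most mice. The difference was 0.81 for CA3 minus DG (SE 0.08, limma adjusted p = 1.41e-09, 17 of 17 mice), 0.39 for CA1 minus DG (SE 0.08, adjusted p = 0.000656, 15 of 17) and −0.42 for CA1 minus CA3 (SE 0.08, adjusted p = 0.00065, 15 of 17 lower in CA1). Syn2, a synapsin, stood apart in CA3, with a lowest, median and highest signal of 7.29, 8.42 and 9.18, against 5.67, 7.0 and 8.36 in CA1 and 4.42, 7.01 and 8.24 in the DG. It was 1.35 higher in CA3 than in the DG (SE 0.26, adjusted p = 0.00021, 17 of 17 mice) and lower in CA1 than in CA3 (−1.14, SE 0.26, adjusted p = 0.00448), while CA1 and DG differed by 0.21 (SE 0.26, adjusted p = 0.729). Its paralogue Syn1 was 0.50 higher in CA3 than in the DG (SE 0.11, adjusted p = 0.00115) and was not called between CA1 and CA3 (−0.29, adjusted p = 0.157) or between CA1 and DG (0.22, adjusted p = 0.243). Syn1 passed between CA1 and CA3 without DN mouse 2 (0.0457) and between CA1 and DG with array weights (0.0235). Syn3, the synapsin of early development, was the other way round at low signal, −0.58 for CA3 minus DG (SE 0.17, adjusted p = 0.0158), a call lost without the 5 arrays (0.0625) or the 7 (0.0569). The vesicle marker Syp and the glycoprotein Sv2a did not pass in any comparison, with differences of 0.01, 0.09 and 0.08 for Syp (SE 0.06 each) and 0.01 in each for Sv2a (SE 0.14).

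**Figure D4:**
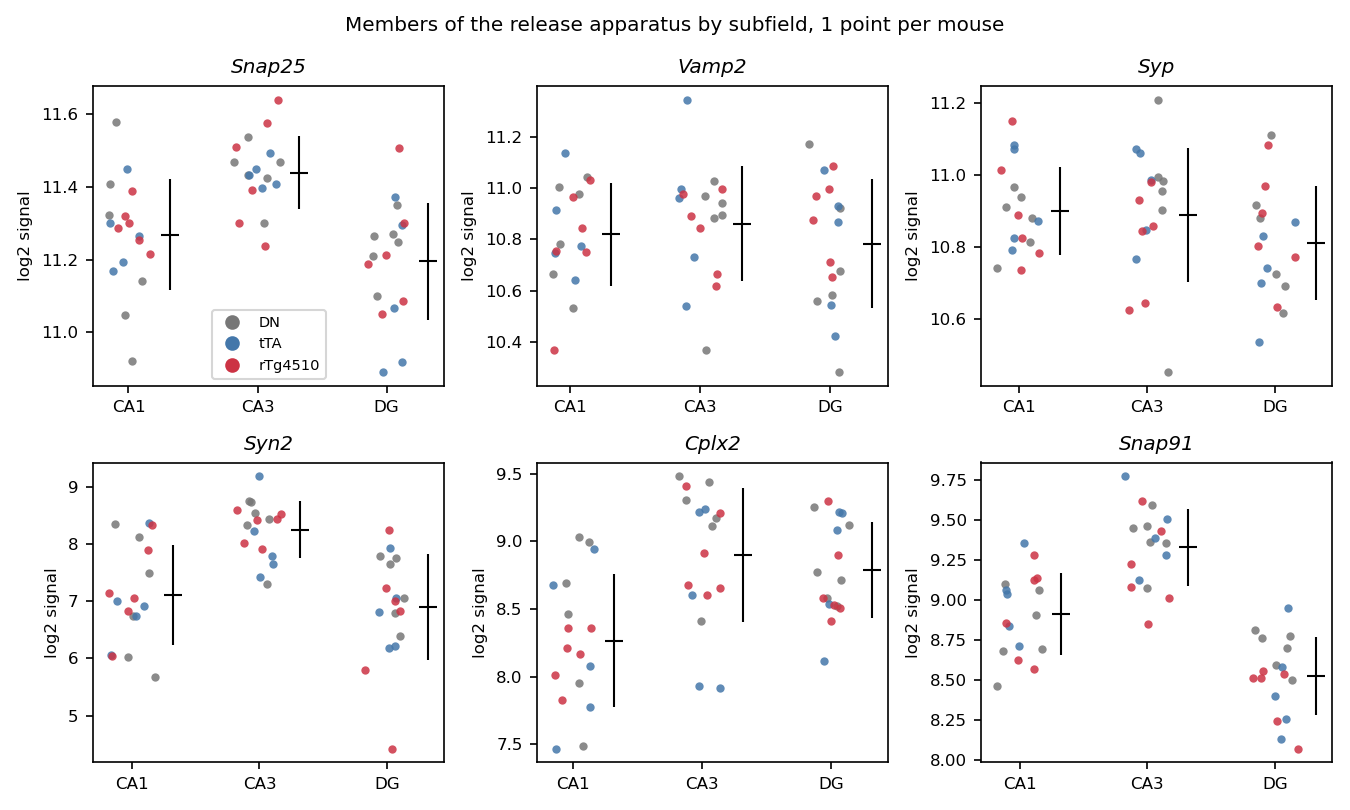
Log2 signal (vertical axis, scaled to each gene) of 6 members in CA1, CA3 and DG, 1 point per mouse coloured by genotype, with the mean and SD of the 17 mice as a bar. The points of Vamp2 and Syp overlap between subfields over most of their range. CA3 is highest for Syn2 and Snap91 (medians 8.42 and 9.36), and CA1 is lowest for Cplx2 (median 8.21).

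The complexins divided. Cplx1 was lower in the DG by 0.58 against CA1 (SE 0.09, limma adjusted p = 2.85e-05, 17 of 17 mice) and by 0.55 against CA3 (SE 0.09, adjusted p = 4.19e-05, 16 of 17 mice), with medians of 9.49, 9.43 and 8.80 in CA1, CA3 and DG. Cplx2, the complexin of many excitatory neurons, was instead low in CA1, with a lowest, median and highest signal of 7.46, 8.21 and 9.03 against a CA3 range of 7.91 to 9.48 (median 9.11) and a DG range of 8.11 to 9.30 (8.71). It was −0.64 for CA1 minus CA3 (SE 0.13, adjusted p = 0.00111, lower in 14 of 17 mice) and −0.52 for CA1 minus DG (SE 0.13, adjusted p = 0.0042, lower in 15 of 17). The retinal complexins Cplx3 and Cplx4 were dim throughout and were not called.

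In the Rab3 group, Rab3a, the main Rab of synaptic vesicles, was higher by 0.45 in CA1 (SE 0.09, limma adjusted p = 0.00108, 15 of 17 mice) and by 0.37 in CA3 (SE 0.09, adjusted p = 0.00544, 14 of 17 mice) than in the DG. Rab3c, a close relative, had medians of 8.03, 7.44 and 6.87 in CA1, CA3 and DG. It was 0.99 higher in CA1 than in the DG (SE 0.19, adjusted p = 0.000247, 15 of 17 mice). Its step of 0.59 from CA1 to CA3 missed the threshold (SE 0.19, adjusted p = 0.0627) and passed it without rTg4510 mouse 1 or 4 or tTA mouse 1 or 2 (0.0304 to 0.0448), with the mouse as a random block (0.0442), with array weights (0.0146) and with the signal filter (0.0467). The difference of 0.40 from CA3 to DG also missed the threshold (adjusted p = 0.165), passing without DN mouse 4 (0.0424). Rab3b differed by 0.55 between CA1 and CA3 (SE 0.23, adjusted p = 0.193), and passed without tTA mouse 5 (0.0338), whose CA3 array gave 5.13 against a CA3 median of 2.65. Of the 7 other Rab genes, Rab32 alone was called, at signals of at most 3.61, lower in CA1 than in CA3 (−0.42, SE 0.12, adjusted p = 0.0318) and 0.35 higher in CA3 than in the DG (SE 0.12, adjusted p = 0.0424). These calls of Rab32 were lost without any of DN mouse 3 or 6, rTg4510 mouse 3 or 4 or tTA mouse 1, 2, 4 or 5 in the first case (0.0516 to 0.0754), and in the second without any of DN mouse 3, 4, 5 or 6, rTg4510 mouse 3, 4, 5 or 6 or tTA mouse 1, 4 or 5 (0.0514 to 0.098), or without the 5 (0.154) or 7 arrays (0.143).

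The 37 members called in no subfield comparison include 11 of the 12 syntaxins, 6 of the 7 VAMPs, Stxbp2 and Stxbp4, and 5 synaptotagmins. Their differences ran from −0.50 (Syt7) to 0.55 (Rab3b) between CA1 and CA3, from −0.44 (Vamp8) to 0.67 (Vamp7) between CA1 and DG, and from −0.62 (Syt13) to 0.38 (Stx7) between CA3 and DG. Only Stx1a and Vamp1 of the syntaxins and VAMPs were called, so those of the Golgi, endosome and lysosome were all here. Of the 37, 14 lay below the median probe set, against 4 of the 23 members called in at least 1 comparison. The lack of a call therefore does not show that their levels are even across subfields. The smallest adjusted p between CA3 and DG in this group was that of Syt8, at 0.27 (SE 0.09, limma adjusted p = 0.0515), followed by Stx7, a syntaxin of late endosomes, at 0.38 (SE 0.14, adjusted p = 0.0609).

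Of the 9 called members with several probe sets, Cplx1, Syn2, Syt1 and Syt4 gave the same calls with each of them. Both other probe sets of Cplx1 were called against the DG (0.59 and 0.56 for CA1, 0.60 and 0.57 for CA3), as were the second probe sets of Syt1 (0.63 in both) and Syt4 (0.71 and 0.90), and the second of Syn2 differed by −1.17 between CA1 and CA3 and by 1.72 between CA3 and DG. The second probe set of Rab3c was called between CA1 and CA3 (0.96, limma adjusted p = 0.0015), where the first was not, and against the DG (1.17), where the third was not (0.38, adjusted p = 0.272). For Syt11 the third probe set was called against the DG (0.37 and 0.41) and the second was not (0.24 and 0.21, adjusted p = 0.187 and 0.238). For Vamp1 the second probe set missed the threshold (0.72 and 0.82, adjusted p = 0.246 and 0.138), and of the dimmer Syt2 probe sets 1 was called against the DG (0.35, adjusted p = 0.0212) and neither between CA1 and CA3. For Vamp4, a SNARE of the trans-Golgi network, a dimmer probe set was called between CA3 and DG (0.46, adjusted p = 0.0283) and the brightest was at −0.02.

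Genes that work with the members were read from lists chosen with earlier results known. Of 20 further genes of docking and priming that were measured, 6 were higher and 1 lower in CA1 than in the DG, 7 higher and 2 lower in CA3 than in the DG, and 1 higher and 1 lower in CA1 than in CA3. The active zone scaffold Pclo was 0.84 and 1.25 higher in CA1 and CA3 than in the DG, the priming factor Cadps 0.78 and 1.11 higher, and Napb, which helps take SNARE bundles apart, 0.89 and 0.81 higher. Cadps2, the relative of Cadps, was low in CA3: it was 3.05 higher in CA1 than in CA3 (SE 0.33, limma adjusted p = 9.4e-08) and differed by −3.17 between CA3 and DG (SE 0.33, adjusted p = 4.37e-09). Rph3a, a Rab3 effector, was low in CA1, at −1.92 against CA3 and −1.35 against the DG. Of 19 other vesicle membrane genes, 7 were higher and 2 lower in CA1 than in the DG, 8 higher and 0 lower in CA3 than in the DG, and 0 higher and 2 lower in CA1 than in CA3. Both genes lower in CA1 are known for mossy fibre vesicles, Synpr (−2.52 and −2.29 against CA3 and DG) and the vesicular zinc transporter Slc30a3 (−0.88 and −0.84). Of 19 endocytosis genes, 6 were higher and 2 lower in CA1 than in the DG, 9 higher and 1 lower in CA3 than in the DG, and 0 higher and 4 lower in CA1 than in CA3. Endophilin A1, Sh3gl2, ran as Snap91 did, with −0.69 for CA1 minus CA3, 0.81 for CA1 minus DG and 1.49 for CA3 minus DG. In these lists the background is that of each comparison given above.

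The second question was whether the members differ with genotype. No member was called in any of the 9 comparisons of 2 genotypes within a subfield, in limma or by Fisher's least significant difference after a 1-way analysis of variance on log2 or linear signals. Of all probe sets, 0.00442% were called in CA1 between rTg4510 and DN and in CA3 between rTg4510 and tTA, and 0% in the other 7. At an unadjusted p below 0.05 there were 1 to 5 members of 60 in each, while 3.94% to 6.13% of all probe sets passed there. The median difference of the members lay between −0.11 and 0.05, against −0.03 and 0.03 for all probe sets, and their median absolute difference between 0.14 and 0.26, against 0.16 and 0.18. Averaging the subfields of each mouse gave 0 called members and 0% of all probe sets in 3 comparisons, with 3 to 6 members at an unadjusted p below 0.05, where 5.35% to 6.17% of all probe sets passed. With 5 or 6 mice a genotype, small differences would not be called, and larger ones went uncalled too. Syt12 in CA1, at −1.39 for tTA minus DN, was 1 of them. These counts do not show that the genotypes are alike.

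Against tTA, the smallest p of rTg4510 mice was that of Stx7 in the DG. The tTA signals were 7.07, 6.96, 6.73, 7.33 and 6.78, and the rTg4510 signals had a lowest, median and highest value of 5.54, 6.16 and 6.76, with a small overlap, while DN lay between at 6.36, 6.47 and 6.95. The difference was −0.76 (rTg4510 minus tTA, SE 0.20, limma adjusted p = 0.591). The next by p in the DG were Rab3a (−0.37), Stx1a (0.98), Sv2a (0.67) and Stx18 (−0.78). In CA1 the smallest p-values were those of Sv2a (0.62), Stxbp6 (0.54), Vamp1 (1.43), Rab38 (−0.28) and Vamp5 (−0.32), and in CA3 those of Rab33a (1.40), Rab31 (1.23), Rab32 (−0.43), Rab38 (−0.30) and Snap91 (−0.21). Adjusted p-values of all of these were 0.591 or above.

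The driver alone was read from tTA against DN. In CA1 Syt12 had a lowest, median and highest signal of 3.04, 4.74 and 5.57 in DN and was at 2.46, 3.26, 3.41, 2.92 and 3.75 in tTA, and the groups overlapped. The difference was −1.39 (SE 0.39, limma adjusted p = 0.998), and rTg4510 mice differed from the same DN arrays by −1.05 (adjusted p = 0.859). In CA3 Syt7, a slow calcium sensor of facilitation, had a lowest, median and highest signal of 3.37, 4.0 and 5.29 in DN against 3.17, 3.92, 3.13, 2.25 and 3.27 in tTA and 2.84, 3.0 and 3.66 in rTg4510 mice. The differences from DN were −1.05 for tTA (SE 0.36, adjusted p = 0.779) and −1.08 for rTg4510 (SE 0.34, adjusted p = 0.984), and the 2 comparisons share the DN arrays. In the DG Syn3 gave 2.4, 3.29 and 3.86 in DN and 2.11, 2.28, 2.79, 2.31 and 2.13 in tTA, a difference of −0.94 (SE 0.31, adjusted p = 0.935), or −1.13 without the arrays against their labels (adjusted p = 0.292). The other members with the smallest p-values were Stx2, Stx6, Rab34 and Rab3c in CA1 (−0.80, −0.87, 0.53 and −0.41), Stx12, Stx2, Rab3c and Cplx2 in CA3 (0.50, 0.41, 0.71 and −0.57), and Rab3a, Syt2, Stx7 and Rab3b in the DG (0.36, −0.59, 0.41 and 0.47).

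Between rTg4510 and DN mice, Vamp8, a SNARE of endosomes and exocytosis outside neurons, had the smallest p in CA1, at a lowest, median and highest signal of 1.9, 2.56 and 2.80 in DN and 2.33, 3.48 and 4.05 in rTg4510 mice. The difference was 0.92 (SE 0.29, limma adjusted p = 0.785). Oligodendrocyte genes stood higher in the same comparison, 11 of 12 with a median difference of 1.41 and none called. The median difference over all probe sets was −0.02. Lists of other cell types are not given for this comparison, and the part of any cell type in Vamp8 was not tested. The next in CA1 were Syt12, Rab33a, Stx2 and Vamp1 (−1.05, 1.24, −0.78 and 1.47), in CA3 Syt7, Syt1, Syt5, Rab3il1 and Syt4 (−1.08, −0.32, −0.74, 0.52 and 0.42), and in the DG Rab33a, Stx1a, Sv2a, Rab37 and Vamp3 (−1.41, 1.04, 0.59, 0.36 and 0.52). Averaged over the subfields, the smallest p-values were those of Vamp1, Sv2a, Rab31, Rab38 and Rab3a for rTg4510 against tTA (0.67, 0.43, 0.80, −0.19 and −0.23), Syn3, Syt12, Syt7, Stx6 and Syt4 for tTA against DN (−0.38, −0.54, −0.51, −0.55 and 0.38), and Syn3, Syt5, Syt7, Syt12 and Vamp1 for rTg4510 against DN (−0.36, −0.51, −0.41, −0.42 and 0.61).

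**Figure D5:**
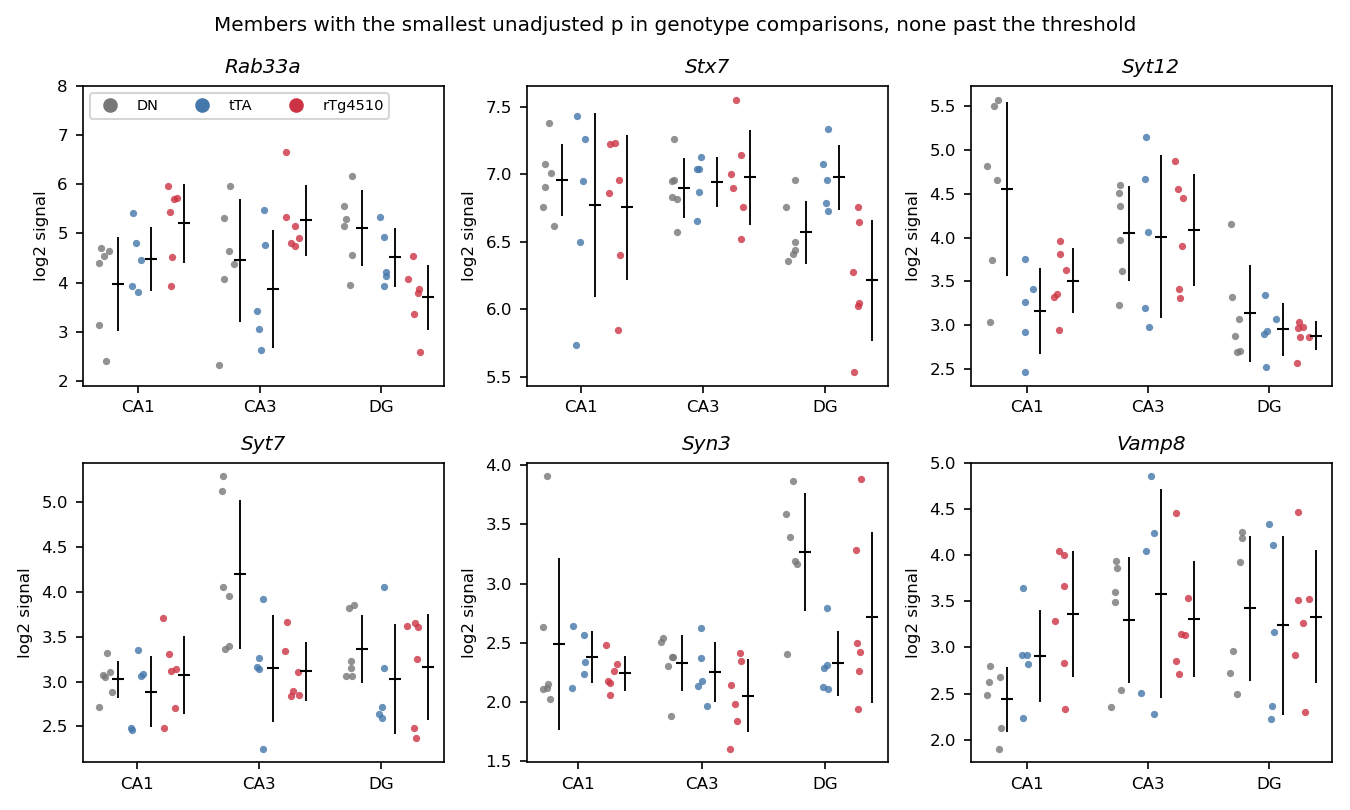
Log2 signal (vertical axis, scaled to each gene) of 6 members by subfield and genotype, 1 point per mouse, with means and SDs as bars. These members had the smallest unadjusted p in 1 or more genotype comparisons and none was called. The rTg4510 points of Rab33a are high in CA1 and CA3 (medians 5.57 and 5.03) and low in the DG (median 3.83).

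Whether genotype changed the steps between subfields was tested on each mouse's own differences. No member and 0% of all probe sets were called in the 9 comparisons, with 1 to 6 members at an unadjusted p below 0.05 in each, where 3.62% to 6.42% of all probe sets passed. The smallest p was that of Rab33a, a Golgi and vesicle Rab of neurons. Its CA1 minus DG difference was above 0 in 6 of 6 rTg4510 mice, from 0.13 to 2.84 with a median of 1.5, and below 0 in 5 of 6 DN mice, from −2.43 to 0.74 with a median of −1.21, while tTA mice lay from −0.53 to 0.53. These counts by mouse include the DN and rTg4510 mice with arrays against their labels, and are not given without them. In the DG its lowest, median and highest signals were 3.96, 5.22 and 6.18 in DN and 2.60, 3.83 and 4.54 in rTg4510 mice. The rTg4510 and DN steps differed by 2.65 (SE 0.55, limma adjusted p = 0.928), or by 2.45 without the 5 arrays (adjusted p = 0.818). For CA3 minus DG the steps of Rab33a differed by 2.23 between rTg4510 and DN (adjusted p = 0.957) and 2.21 between rTg4510 and tTA (adjusted p = 0.704). Stxbp6 was second for the CA1 to DG step of rTg4510 against DN, at 1.21 (SE 0.54, adjusted p = 0.928), which became 2.07 without the 5 arrays (adjusted p = 0.734). Stx2 was first for the CA1 to CA3 step, at −1.21 between tTA and DN and −1.09 between rTg4510 and DN (adjusted p = 0.996 and 0.999). The remaining first places went to Stxbp6 for the CA1 to CA3 step of rTg4510 against tTA (0.78), Rab33a for its CA1 to DG step (1.53), and Rab32 and Syt2 for the CA1 to DG and CA3 to DG steps of tTA against DN (−0.50 and 0.94).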

How the data were processed

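Cellular layers of CA1, CA3 and DG from 17 mice gave 51 Affymetrix arrays (HT-MG-430A) after RNA amplification. The values used are the deposited log2 signals, which the authors made with RMA (per the labels, no version), a method that corrects background, quantile-normalizes and summarizes probes into probe sets. The paper speaks of anti-log RMA, but the deposited values lie on a log2 scale. Sequencing depth does not apply to arrays, and what limits precision was not tested. Groups came from the labels' genotype and subfield.

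Of 22716 probe sets, 90 controls were dropped and 22626 tested. The platform table gives 1 symbol for 18003, several for 287 and none for 4336. The probe sets of Prnp were named from the study's supplementary tables. Members and lists were chosen with earlier results of these data known. limma 3.58.1 in R 4.3.3 fitted subfields on the 51 arrays together, each mouse a fixed block, genotypes in each subfield over 17 arrays, mouse means, and within-mouse subfield differences, and adjusted p-values by Benjamini-Hochberg across every probe set tested. Mouse numbers in the labels pair the arrays, and arrays that share a number were taken to come from the same animal. The Xist signals described above put this in doubt for some arrays. In the genotype fits, p-values rest on the spread between mice. In the subfield fits, they rest on how the differences within a mouse vary from mouse to mouse. Named were 19 core genes where measured, called members (the 12 largest where more passed, and then the rest after their values were seen), and the 5 smallest p-values of each genotype comparison, of which only the leading ones are printed for differences between subfield steps. Partner genes are the up to 4 largest called per list, given in part. Sv2b and Sv2c have no probe set with a single symbol in the table used. Scripts were tested on simulated data. Figures and counts were made in Python 3.11.15 with pandas 2.3.3 and matplotlib 3.10.9.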

Additional observations from a re-analysis of the deposited data

Results flagged for a closer look

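Of 279 sets of values, 31 named genes in 9 groups of 5 or 6 arrays, 23 held an array set apart from the rest by Dixon's test, where chance flags about 1 set in 20. They fell on 18 arrays. The CA3 array of DN mouse 2 held 4, all low: Cplx2 at 8.41, Syn2 at 7.29, Syt1 at 10.5 and Vamp2 at 10.37. The DG array of rTg4510 mouse 6 held 3, Stx2 at 5.94, Stxbp3 at 3.79 and Syt12 at 2.57. In other CA1 arrays Snap29 was at 3.96 in tTA mouse 1, Stx2 at 3.45 in rTg4510 mouse 4, Stxbp6 at 2.72 in tTA mouse 4, Sv2a at 8.24 in rTg4510 mouse 1, Syn3 at 3.91 in DN mouse 3 and Syt3 at 5.28 in rTg4510 mouse 5. In other CA3 arrays Rab33a was at 6.66 in rTg4510 mouse 4, Rab3b at 5.13 in tTA mouse 5, Syn3 at 1.88 in DN mouse 3 and Syt4 at 7.09 in rTg4510 mouse 6. In other DG arrays Snap29 was at 4.35 in tTA mouse 3, Stxbp6 at 6.33 in rTg4510 mouse 3, whose Prnp went against its label, Sv2a at 8.09 in rTg4510 mouse 5, Syn1 at 8.77 in tTA mouse 4, Syt4 at 6.84 in tTA mouse 2 and Vamp1 at 5.1 in DN mouse 2. All values are log2 signals. No difference between genotypes in the step between subfields passed its test.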

How the results depend on the processing

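Under the alternatives with all 3 genotypes, including no replicate block (6, 18 and 19 members called between CA1 and CA3, CA1 and DG, and CA3 and DG), a random block (7, 18 and 20), median centring, a trend with intensity, quantile normalization, weighted arrays, a signal filter, 1 probe set per gene and leaving out arrays, the counts of 6, 18 and 18 stayed within 4 to 8, 15 to 20 and 16 to 20. Leaving out each mouse in turn gave 4 to 8, 15 to 19 and 16 to 20. Fits of 5 or 6 mice called fewer: DN mice only gave 0, 3 and 8, tTA mice only 0, 1 and 4, and rTg4510 mice only 0, 5 and 7, where fewer samples enter. The shares of all probe sets called in these alternative fits are not given here. Their member counts are therefore not set against a background or compared between genotypes. Calls of 3, 14 and 15 members held under every alternative with all genotypes, among them Stxbp6, Syt10, Syt17, Syt4, Cplx1, Snap91 and Vamp1. Syt3 (CA1 minus DG) was also lost with quantile normalization (adjusted p = 0.0569) and array weights (0.135), Rab32 (CA3 minus DG) with array weights (0.106), and without the DG array of rTg4510 mouse 5, chosen after seeing the data, Syt3 (0.0938 and 0.0538) and Rab32 (0.0522). The cause was not tested. Genotype counts were 0 under every alternative run, and no called difference changed sign. The consensus correlation of arrays of a mouse was 0.0454.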
